A study of Homo sapiens with 49 samples.

Results

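The retinoic acid receptor RARA was mapped by chromatin immunoprecipitation followed by sequencing (ChIP-seq) in Ishikawa cells, an endometrial adenocarcinoma line, and the peaks found with the vehicle DMSO were set against those found with 10 nM 17β-estradiol (E2). The peaks described are all those of the 2 Ishikawa RARA lists, 137 with DMSO and 2883 with E2, out of 45 peak lists in the series. Both groups were kept in hormone-depleted medium before treatment, were treated for 1 h, and were precipitated with the same RARA antibody. Each was 1 library, so no difference between DMSO and E2 has a replicate check, and none was tested. A peak was called shared when it overlapped a peak of the other list by at least 1 bp, and otherwise E2-only or DMSO-only. The other 19 Ishikawa lists used for comparison came from the same line treated for 1 h (TAF1, JUN, LSD1, MAX, MYC) or 8 h (H3K4me3, H3K4me1, H3K27me3) with DMSO or E2, from SIN3A in stripped or full media, and from H3K36me3. Of 12 endometrial epithelial marker genes, 10 carried H3K4me3, a mark of active promoters, at a start site with DMSO (CDH1, EMX2, EPCAM, ESR1, KRT18, KRT19, KRT8, MUC1, PAX8 and PGR). Of 9 genes that mark blood, endothelial, glial, liver, muscle or stromal cells, 8 did not carry it.

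RARA is a nuclear receptor that binds DNA as a heterodimer with a retinoid X receptor (RXR). Its textbook sites are direct repeats of the half-site AGGTCA. Without ligand the pair holds corepressors at its target genes, and retinoic acid exchanges them for coactivators. RARA is itself a known target of estrogen receptor in breast cells. The CCAAT box, which recurs below, is the site of the trimeric factor NF-Y and is a common element of promoters just upstream of the start site.

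The E2 list was far longer than the DMSO list and contained nearly all of it. Of 137 DMSO peaks, 126 (92.0%, exact 95% interval 86.1 to 95.9) were also in the E2 list, and only 11 were not. Of 2883 E2 peaks, 127 (4.41%, 3.69 to 5.22) were in the DMSO list and 2756 were E2-only. These intervals, like all below, are Clopper-Pearson intervals that cover counting error only. The shared peaks were the strongest of the E2 list. Their fold enrichment, the authors' ratio of ChIP signal to background at the summit, had a median of 24 (quartiles 17.8 and 31.4) with E2, and the E2-only peaks had a median of 8.66 (6.93 and 11.1). Shared peaks were also wider in the E2 list, with a median of 633 bp against 273 bp for E2-only peaks. Of the 50 E2 peaks with the best q-values, 49 were in the DMSO list, but of ranks 101 to 200 only 26 of 100 were, and of ranks 1601 to 2883 only 3 of 1283.

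Of the 10 shared peaks with the highest fold enrichment, 9 had their summit within 250 bp of a start site. The first in fold enrichment was at PXMP4, which encodes a peroxisomal membrane protein, with a fold enrichment of 29.0 with DMSO and 70.6 with E2. SP2, which encodes an Sp-family transcription factor, went from 32.8 to 55.1. ARRDC4, an arrestin-domain gene, went from 24.9 to 53.6. Next were TEPSIN (25.4 and 49.1), TMEM94 (20.9 and 48.6), P4HB, the protein disulfide isomerase gene (26.1 and 48.2), PGP (10.1 and 46.1) and METTL17 (11.1 and 45.5). The other members of the top 10 were an intronic peak 11643 bp from the nearest start site, with NFIC the nearest protein-coding gene (15.1 and 42.0), and one at the promoter of the non-coding gene TSPEAR-AS2 (15.4 and 41.0). All 10 overlapped TAF1, SIN3A and H3K4me3 peaks, and 9 of 10, the exception being TSPEAR-AS2, overlapped a RARA peak in T-47D.

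The sequences under these summits are shown because they carry the feature that set the lists apart. Each is the 101 bases centred on the E2 summit, on the plus strand of GRCh37 (hg19), with CCAAT or its reverse complement ATTGG in capitals. The first 6 are the top shared peaks and the last 2 are among the top 3 E2-only peaks.
PXMP4, chr20:32308170-32308270: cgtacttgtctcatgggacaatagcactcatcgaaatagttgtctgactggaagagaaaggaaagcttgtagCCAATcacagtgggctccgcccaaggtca
SP2, chr17:45973403-45973503: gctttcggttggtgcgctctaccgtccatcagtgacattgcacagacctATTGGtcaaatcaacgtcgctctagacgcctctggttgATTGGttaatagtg
ARRDC4, chr15:98503711-98503811: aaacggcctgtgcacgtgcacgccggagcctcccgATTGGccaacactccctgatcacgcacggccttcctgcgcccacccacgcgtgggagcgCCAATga
TEPSIN, chr17:79212903-79213003: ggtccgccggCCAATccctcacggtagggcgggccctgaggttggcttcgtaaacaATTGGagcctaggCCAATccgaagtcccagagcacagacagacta
TMEM94, chr17:73452590-73452690: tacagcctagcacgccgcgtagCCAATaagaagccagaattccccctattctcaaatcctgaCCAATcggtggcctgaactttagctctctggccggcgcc
P4HB, chr17:79818650-79818750: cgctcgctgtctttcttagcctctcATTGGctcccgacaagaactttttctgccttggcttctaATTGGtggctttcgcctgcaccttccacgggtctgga
MAEA, chr4:1283525-1283625: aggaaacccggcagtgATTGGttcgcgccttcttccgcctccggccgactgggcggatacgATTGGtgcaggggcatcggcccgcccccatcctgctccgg
CACNB1, chr17:37333667-37333767: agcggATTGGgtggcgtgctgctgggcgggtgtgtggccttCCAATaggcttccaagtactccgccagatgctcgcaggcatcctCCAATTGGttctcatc
All 8 windows held at least 1 CCAAT box, and none held a pair of AGGTCA half-sites as a direct repeat. In the wider window of 100 bp either side of the summit SP2 had 7 boxes, TEPSIN 6, P4HB and CACNB1 4 each, and PXMP4, ARRDC4 and MAEA 3 each.

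The CCAAT box was counted across whole lists in the 100 bp either side of each summit, on both strands. It was present at 117 of 127 shared peaks (92.1%, 86.0 to 96.2), 1413 of 2754 E2-only peaks on the nuclear chromosomes 1 to 22 and X (51.3%, 49.4 to 53.2) and 3 of 10 DMSO-only peaks. Of all protein-coding start sites marked with H3K4me3, 28% held it in a window of the same length. The share of summits was 18.2% for TAF1 with DMSO, 19.4% for JUN with E2 and 23.6% for MAX with E2, and in the 16 other Ishikawa lists with over 1000 peaks it ran from 13.1% (H3K4me3 with E2) to that value. Boxes recurred within a window: 3 or more were found at 87 of 127 shared peaks (68.5%) and 13.1% of E2-only peaks, and at 90 of 19348 TAF1 peaks. At TAF1 promoter peaks without a RARA peak the box was found at 15.9% (15.2 to 16.6). Of E2-only RARA peaks at promoters 71.9% (69.5 to 74.3) held it, and of E2-only peaks over 5 kb from every start site 27.1% (24 to 30.4). In T-47D, a breast cancer line also studied in the series, the box was found at 79.7% of RARA summits with DMSO and 85.9% with E2.

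The boxes centred on the summit. The median distance from a shared summit to the nearest box was 16 bp, and 61.4% (52.4 to 69.9) of shared summits had one within 20 bp, against 27.3% (25.7 to 29.0) of E2-only, 4.01% of JUN E2 and 3.01% of TAF1 DMSO summits. In 10 bp bins around shared summits the density reached 22.8 boxes per kb, and around E2-only summits it peaked at 8.13 per kb. Successive boxes on the same strand were spaced by a median of 42 bp at shared and 43 bp at E2-only peaks. At promoter peaks 89.3% of boxes in shared and 89.4% in E2-only windows were upstream of the nearest protein-coding start site, with median positions of -92.5 bp and -74 bp relative to it.

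**Figure D1:**
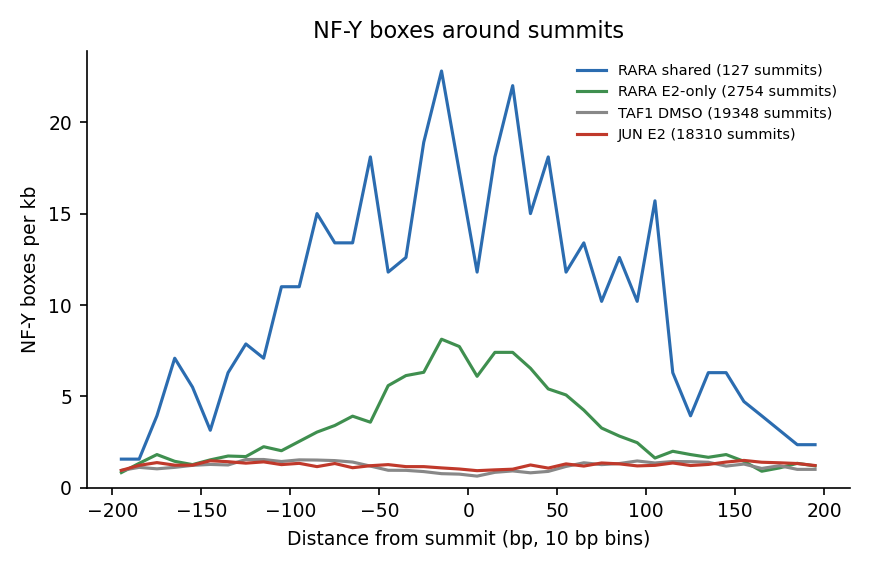
CCAAT (NF-Y) boxes per kb (y axis) by distance from the peak summit in bp (x axis, 10 bp bins) for shared and E2-only Ishikawa RARA peaks and for TAF1 DMSO and JUN E2 peaks. Each line is 1 list or class with its number of summits. Both RARA classes rise around the summit, shared peaks to 22.8 boxes per kb, and the TAF1 and JUN lines do not.

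E2 peaks with 3 or more boxes had a higher median fold enrichment and a higher share in the DMSO list, and from 0 to 2 boxes the median fold enrichment was nearly level. E2 peaks with 0 boxes had a median fold enrichment of 8.50 and were in the DMSO list for 10 of 1351 (0.740%). With 1 box the median was 8.39 and the share 1.77%. With 2 boxes the median was 8.67 and the share 3.86%, with 3 boxes 12.6 and 14.5%, and with 4 or more 15.4 (quartiles 10.3 and 21.8) and 29.1%, or 44 of 151. The share with a RARA peak was also counted from the promoters, without the peak summits. Of 13353 protein-coding start sites marked with H3K4me3, taking a window of 100 bp either side of a point 50 bp upstream of the outermost coding start, 6.57% (6.09 to 7.09) of those with no box belonged to a gene with an E2 RARA summit at a promoter. The share was 15.8% (14.4 to 17.3) with 1 box, 43.2% (39.9 to 46.6) with 2, 68.8% (62.0 to 75.1) with 3 and 77.1% (65.6 to 86.3) with 4 or more. For shared peaks it went from 0.260% with no box to 22.9% (13.7 to 34.4) with 4 or more. These relations are across peaks or genes of 1 library each and were not tested.

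**Figure D2:**
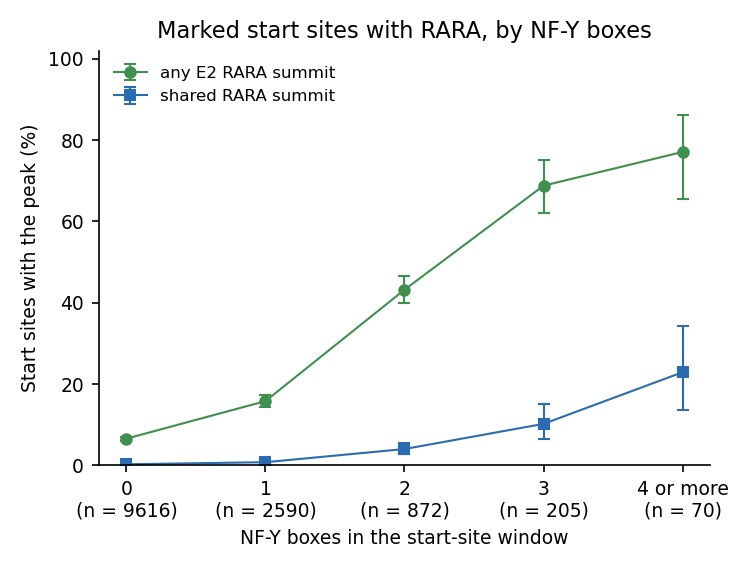
Share of H3K4me3-marked protein-coding start sites whose gene had any E2 RARA summit (circles) or a shared RARA summit (squares) at a promoter (y axis, %), by the number of NF-Y boxes in the start-site window (x axis, with the number of start sites). Bars are exact 95% intervals. The share with any E2 summit goes from 6.57% with no box to 77.1% with 4 or more.

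Exact copies of the textbook retinoid element were rare at shared and E2-only peaks, and also in the comparison windows. Exact direct repeats of AGGTCA with 1 to 5 free bases were found at 0 of 127 shared and 5 of 2754 E2-only windows (0.182%, 0.0590 to 0.423), against 20 of 18310 JUN E2 windows (0.109%) and 8 of 13353 marked start-site windows (0.0599%). Single half-sites were at 9 of 127 shared (7.09%) and 14.6% of E2-only windows, against 7.93% of TAF1 DMSO windows. The E2-only share was thus above that of TAF1. The bases G and C made up 65.9% of the TAF1 windows and 58.9% of the E2-only windows. The cause of the difference in half-sites was not tested. Allowing the first base of each half-site to be A or G and the third G or T, repeats with 1, 2 or 5 free bases gave 0 shared windows and 7, 0 and 4 of the 2754 E2-only windows. No comparison list stands beside these relaxed counts, so they do not show more or fewer repeats than elsewhere. The estrogen response element, searched as GGTCA, 3 free bases and TGACC, was in 0 shared and 7 E2-only windows (0.254%), and in 57 JUN E2 windows (0.311%). Absence of these letters from a window says nothing of weaker sites or of indirect binding. No library from cells without RARA was analysed here, so what the antibody recovered was not tested.

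The share of peaks at promoters was lower among E2-only than among shared peaks, and the share far from start sites higher, with intervals that did not overlap. Summits within 250 bp of a start site, the definition of a promoter used here, made up 105 of 127 shared peaks (82.7%, 75 to 88.8) and 1397 of 2756 E2-only peaks (50.7%, 48.8 to 52.6). Of E2-only peaks 747 (27.1%) were in introns, 481 (17.5%) between genes, 37 in UTRs and 31 in coding exons, and 772 (28.0%, 26.3 to 29.7) lay over 5 kb from every start site, against 10 of 127 shared peaks (7.87%, 3.84 to 14). Among summits within 1000 bp of a start site the median position was -98 bp for shared and -52 bp for E2-only ones, and 91.3% and 76.8% were upstream. By the same count the promoter share was 62.6% for TAF1 DMSO, 36.1% for JUN E2 and 7.07% for H3K4me1 DMSO peaks. Within the E2 RARA list it was 88% at ranks 1 to 50 by q-value and 36% at ranks 1601 to 2883. At ranks 201 to 400, where 190 of 200 peaks were E2-only, it was 86.5%. The part of strength in the difference between the classes was not tested.

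Of the 10 E2-only peaks with the highest fold enrichment 8 were at promoters, as defined above. MAEA, a ubiquitin ligase subunit gene, led with a fold enrichment of 37 and a pileup of 116 tags. The others named here were CACNB1 (30.3), KIAA0319L (27.9), JPT2 (27.2), DROSHA, the nuclear microRNA processing enzyme (26.8), XXYLT1 (26.5), SPG7 (26.4), a promoter shared by a non-coding gene and ALKBH3 (26.2) and a peak in a UTR of SYP (26.1). The CACNB1 summit was in a coding exon 806 bp from the start site. All 10 overlapped TAF1, SIN3A and H3K4me3 peaks, and 8 of 10 a T-47D RARA peak.

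The E2-only peaks over 5 kb from a start site differed from the promoter group in what they overlapped. H3K4me1, a mark of enhancers, was at 59.8% of them with DMSO (56.3 to 63.3), against 5.44% (4.31 to 6.76) of E2-only promoter peaks and 3.94% (1.29 to 8.95) of shared peaks. Over all E2-only peaks the H3K4me1 share was 30.7%, and it fell to 4.1% at a reciprocal overlap of 50%, 19.7% with the RARA summit inside the H3K4me1 peak and 13.7% with that list shortened, with shared peaks at 0%, 0% and 0.787%. JUN, an AP-1 subunit, was at 67.6% (64.2 to 70.9) in its DMSO list, against 15.7% of E2-only promoter peaks and 12.6% of shared peaks. In the JUN E2 list it was at 93.7% (91.7 to 95.3), 67.6% (65.0 to 70.0) and 56.7% (47.6 to 65.5). LSD1, a histone demethylase, was at 83.5%, 38.4% and 31.5% in its DMSO list. In the LSD1 E2 list the shares were 70.7% (67.4 to 73.9), 65.9% (63.4 to 68.4) and 50.4% (41.4 to 59.4). There the intervals of distal and promoter E2-only peaks overlapped. The general transcription factor TAF1 ran the other way, at 63.9% of distal and 97.5% of promoter E2-only peaks and 93.7% of shared peaks. H3K4me3 was still at 60.4% (56.8 to 63.8) of the distal peaks, and SIN3A in stripped media at 51.8%. The AP-1 letters TGACTCA or TGAGTCA stood within 100 bp of 19.7% of the distal summits, 2.36% of the E2-only promoter summits and 2.36% of the shared summits. The share was 14.7% of all JUN E2 summits, of which 36.1% were at promoters and 34% over 5 kb from a start site. The JUN share is thus not one of distal summits alone.

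**Figure D3:**
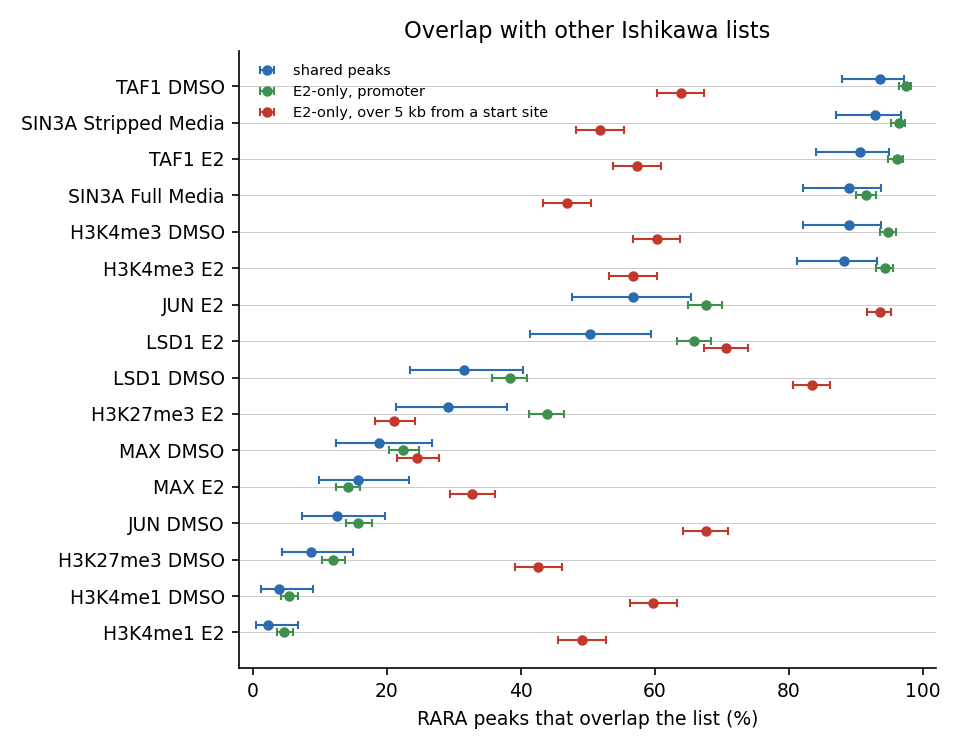
Share of RARA peaks that overlap each other Ishikawa list by at least 1 bp (x axis, %; the lists on the y axis, leaving out MYC and H3K36me3, which had few peaks), for shared peaks, E2-only promoter peaks and E2-only peaks over 5 kb from a start site. Bars are exact 95% intervals. The distal peaks sit to the right for JUN, H3K4me1 and LSD1 DMSO and to the left for TAF1, SIN3A and H3K4me3. For LSD1 E2 their interval overlaps that of the E2-only promoter peaks.

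By the rule for distal peaks (E2-only, over 5 kb from a start site, outside H3K4me3) 266 peaks remained, of which 238 were in a JUN list. The highest in fold enrichment was 86634 bp from the nearest start site on chromosome 16, with ZNF469 the nearest protein-coding gene (fold enrichment 24.9). It was outside all TAF1, SIN3A, JUN, LSD1 and MAX lists, was in a T-47D RARA list, and held 4 CCAAT boxes within 100 bp either side of its summit. The next were near LINC02302 (19.6), TENM2 (17.9), BRINP1 (17.4) and STK38L (17.4), each in both a JUN and an LSD1 list, and near RBBP8 (15.5), NKX1-1 (15.4), BBX (14.8), TENM3 (14.8) and ATP2B2 (14.6). Of these 10, 8 were in a JUN list, and the exceptions were those near ZNF469 and NKX1-1. Peaks near ZNF469 and LINC02302 are shown with CCAAT boxes and AGGTCA half-sites of either strand in capitals.
ZNF469 distal peak, chr16:88354975-88355075: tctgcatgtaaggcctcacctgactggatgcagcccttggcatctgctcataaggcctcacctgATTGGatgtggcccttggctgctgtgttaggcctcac
LINC02302 distal peak, chr14:45170783-45170883: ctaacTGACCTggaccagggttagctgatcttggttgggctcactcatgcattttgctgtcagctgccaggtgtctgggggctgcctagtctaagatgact
The first held a box and no half-site, and the second 1 half-site and no box.

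Within 250 bp of their start sites the listed retinoid genes held no RARA summit in either list. Among 20090 protein-coding genes, 126 (0.627%) had a DMSO RARA summit at a promoter and 1654 (8.23%) an E2 summit. Among the 13532 with H3K4me3 at a promoter, 12.1% had an E2 summit. None of the 6 retinoid receptor genes, of the 18 genes of retinoid transport and metabolism or of the 15 textbook retinoic acid targets did, although 5, 14 and 10 of them carried H3K4me3. With a promoter of 1000 bp either side, 1 of the 6 receptor genes (16.7%), RARA itself, had an E2 summit, and the other lists stayed at 0. Within the genes or 5 kb either side, E2-only peaks were found in an intron of RARA (fold enrichment 8.04), in an intron of DHRS3, a retinaldehyde reductase (8.98), in an intron of ALDH1A2, a retinoic acid synthesising enzyme (6.04), and at position -1469 bp from the start of CYP26A1, which breaks retinoic acid down (6.45), between it and CYP26C1. No DMSO peak lay there. The RARA and DHRS3 peaks are shown with the same letters in capitals.
RARA intron, chr17:38478757-38478857: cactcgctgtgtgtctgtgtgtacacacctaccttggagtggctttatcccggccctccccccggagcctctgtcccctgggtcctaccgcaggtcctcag
DHRS3 intron, chr1:12660378-12660478: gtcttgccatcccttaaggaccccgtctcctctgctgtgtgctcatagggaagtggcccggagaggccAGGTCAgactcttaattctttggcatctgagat
The RARA peak held neither a box nor a half-site, and the DHRS3 peak 1 half-site.

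Of 18 coregulator genes, all with H3K4me3, 3 (16.7%) had an E2 summit at a promoter, all E2-only. The share was 12.1% of all protein-coding genes with H3K4me3 and 8.23% of all protein-coding genes. The 3 coregulator genes were SIN3A (fold enrichment 20.3), NCOA2, a coactivator gene (14.2), and GPS2, a subunit of the NCoR complex (6.75). Of 23 known estrogen targets MYC had one within 250 bp of a start site (8.29; 4.35% of the list), and within 1000 bp MYC and RARA did (8.7%). GREB1, an early estrogen target in breast cells, had an intronic E2-only peak 16440 bp from its start with a fold enrichment of 15.7 and 4 of the 5 other proteins, CCND1 had one at -2041 bp (6.42), and IGF1R had 2 intronic peaks (5.88 and 6.81). The sequence at the GREB1 summit held 1 half-site, again in capitals.
GREB1 intron, chr2:11638857-11638957: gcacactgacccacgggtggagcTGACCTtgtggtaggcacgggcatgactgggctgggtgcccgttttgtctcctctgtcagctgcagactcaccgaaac
Of 19 immediate early genes KLF6 (18.1), MYC and JUN (7.48) had an E2 summit at a promoter, and FOSB and NR4A1 had one in an intron (5.02 and 7.39). The promoter share was 15.8% of the list and 16.7% of its 18 members with H3K4me3, beside 12.1% of all genes with the mark.

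The lists of genes for general cell functions differed in how many members had an E2 summit, against 8.23% of all protein-coding genes. The small nucleolar RNA host genes are non-coding and are not among the genes of that share. An E2 summit was at a promoter of 20 of 79 cytosolic ribosomal protein genes (25.3%), led by RPLP0 (19.3) and RPS26 (13.9, and 9.27 with DMSO), of 19 of 78 mitochondrial ribosomal protein genes (24.4%), led by MRPL18 (15.8), and of 17 of 56 splicing factor genes (30.4%), led by HNRNPC (35.8), HNRNPL (30) and HNRNPA1 (24.3). The last 3 also had DMSO summits there, of 18.0, 11.1 and 8.50. The counts were 11 of 55 for genes with translation initiation factor symbols, led by EIF4A1 (15.1), 10 of 48 for proteasome subunits, led by PSMD4 (12.7), 60 of 476 (12.6%) for numbered zinc finger genes, led by ZNF689 (31.1), 7 of 63 for replication-dependent histones, 4 of 29 for small nucleolar RNA host genes, led by SNHG10 (24.9), 3 of 40 (7.50%) for the preinitiation complex and RNA polymerase II, led by POLR2I (8.98), and 0 of 39 for HOX genes. Of ribosomal, splicing and proteasome genes with H3K4me3 the shares were 25.6% (cytosolic), 24.7% (mitochondrial), 31.5% and 22.2%, for translation initiation factors 21.6%, for replication-dependent histones 41.2% (7 of 17), for numbered zinc finger genes 14.5% and for the preinitiation complex and RNA polymerase II 7.89%, beside 12.1% of all genes with the mark. A peak near the start sites of 2 genes was counted for each, and 264 promoter E2 peaks were at 2 or more protein-coding genes. Among the histones, H2AC6 and H2BC4 had the same peak (7.03), as did H2AC15 and H2BC15 (5.88). No test was made over these lists.

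Some genes gathered several E2 peaks. In all 64 of 20090 protein-coding genes had 3 or more within the gene or 5 kb of it. GSE1 had 8 over 506.7 kb and ZMIZ1, a transcriptional coregulator, 7 over 247.6 kb. ABLIM1 (336.9 kb), TOM1L2 (128.9 kb), CORO7 (71.2 kb) and the overlapping CORO7-PAM16 (80.2 kb) had 6 each. AFAP1L2 (109.9 kb), KAZN (1225 kb), XXYLT1 (202.9 kb) and VASN (11.7 kb), which lies inside CORO7, had 5 each. The part of gene length in these counts was not tested.

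Most RARA peaks overlapped peaks of several other proteins. Of 2883 E2 peaks 756 (26.2%) overlapped peaks of all 5 of TAF1, SIN3A, JUN, LSD1 and MAX, and 58 (2.01%) none of them. A protein was counted when the peak overlapped either of its 2 lists. These lists covered from 0.0159% (MAX E2) to 0.47% (TAF1 DMSO) of the genome. No share for promoters without a RARA peak stands beside these counts, so they do not set RARA apart from other active promoters. Seen from the other lists, an E2 RARA peak was at 31.5% (30 to 33.1) of 3362 JUN peaks constant between DMSO and E2, at 7.81% (7.39 to 8.26) of 14949 E2-only JUN peaks and at 3.68% of 190 DMSO-only ones. For LSD1 it was at 21.7% of constant, 4.74% of E2-only and 11.0% of DMSO-only peaks, and for TAF1 at 14.1%, 9.21% and 3.73%. For JUN, LSD1 and TAF1 the constant share was thus the highest. For MAX it was 32.1% (29.6 to 34.6) of constant and 36.3% (32.6 to 40.1) of E2-only peaks, whose intervals overlap, and 14% of DMSO-only peaks. Constant JUN peaks had a median fold enrichment of 19.4 and E2-only ones 8.75, and the part of strength in this difference was not tested. The H3K27me3 lists, a mark of repressed genes, overlapped 12% of E2-only promoter peaks with DMSO and 43.9% with E2, but 42.6% of E2-only peaks over 5 kb from a start site with DMSO and 21.1% with E2. The H3K27me3 E2 list had 67.3% of its own summits at promoters against 24.2% with DMSO, and the cause of this difference between the 2 lists was not tested.

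The depth of the libraries differed in the same direction as the lists. Fold enrichment and p-value together gave back a whole number of tags under every summit, and the steps in the background gave 2.77 times as many tags in the E2 library as in the DMSO library, and estimated totals of 14.6 M and 5.29 M tags. At 43 shared summits up to 20 bp apart where both libraries gave whole input tags, 20 had the same number of input tags and 37 were within 1; which input library was used is not given in the sources used here. At the 127 shared pairs the pileup had a median of 35 tags with DMSO (quartiles 26 and 52) and 177 with E2 (134 and 227), a median ratio of 4.50 (3.76 to 5.46). It exceeded the tag ratio of 2.77 in 118 of 127, and per tag the median ratio was 1.63. With E2 pileups divided by the tag ratio, 1442 E2 peaks had a −log10 p-value of at least 10, 1009 one of at least 12.3, the lowest in the DMSO list, and 382 at least 2 times that, so the count depends on the threshold. The authors' minimum width was not applied in these counts. The efficiency of the precipitations and the treatment cannot be told apart with 1 library each.

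**Figure D4:**
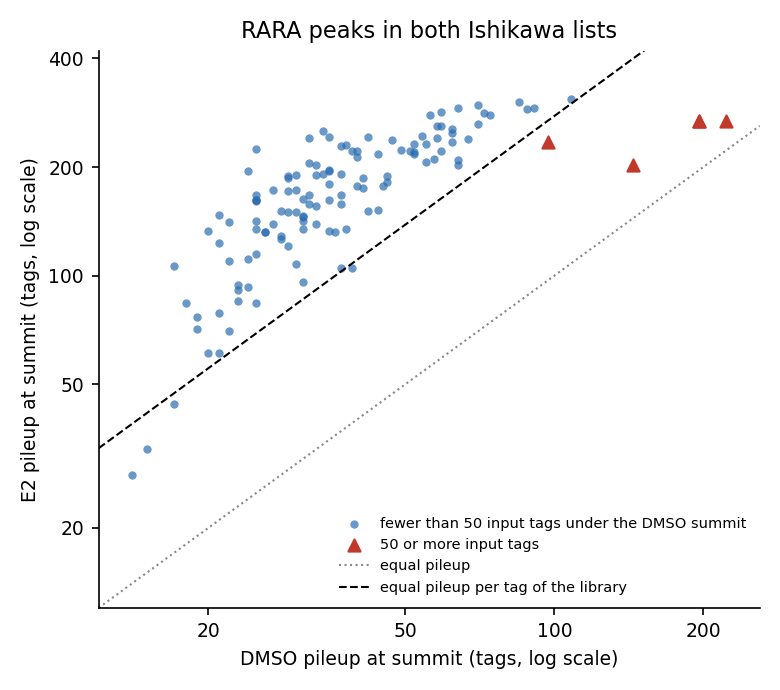
Tags under the summit with DMSO (x axis) and with E2 (y axis), both on log scales, for the 127 pairs of shared RARA peaks. The dotted line is equal pileup and the dashed line equal pileup per tag of the library; 118 points lie above the dashed line, and the triangles, with 50 or more input tags, lie below it.

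The pairs below the tag ratio numbered 9. Of these, 5 had 50 or more input tags under the DMSO summit and fold enrichments of 3.45 to 5.17 with DMSO, all intergenic on chromosomes 1, 6 and 21, with pileup ratios of 1.21 to 2.41. The 11 DMSO-only peaks had the same features. Their fold enrichment ran from 2.14 to 7.85, 9 of 11 had 50 or more input tags, and none was at a promoter. All 11 overlapped a peak of the Ishikawa MYC DMSO list, which had only 61 peaks. Of that list 65.6% was intergenic and 18% mitochondrial. In T-47D, 9 of the 11 also overlapped the H3K27me3 E2 list and 8 the LSD1 DMSO list. Of the 11 DMSO-only peaks 10 were on chromosomes 2, 6, 7, 8, 10, 18 and 19, most of them intergenic, and 1 was on the mitochondrial chromosome. The strongest, 7.85, was in an intron on chromosome 2 with LTBP1 the nearest protein-coding gene.

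Peaks of the E2 list that were missing from the DMSO list were often present in T-47D when they ranked high. The T-47D RARA lists had 844 peaks with DMSO and 755 with E2, and the DMSO list contained 92.1% (86.0 to 96.2) of the shared and 20.1% (18.7 to 21.7) of the E2-only Ishikawa peaks. Conversely 79.7% of the T-47D DMSO peaks were in the Ishikawa E2 list. By rank, 74 of 74 E2-only peaks at ranks 101 to 200 and 159 of 190 at ranks 201 to 400 (83.7%, 77.6 to 88.6) were in a T-47D RARA list, but 68 of 1280 (5.31%, 4.15 to 6.69) at ranks 1601 to 2883. The CCAAT box was at all of the first 200 E2 peaks and at 35.2% (32.5 to 37.8) of ranks 1601 to 2883. H3K4me1 went the other way, from 1 of the first 50 to 42.9% (40.2 to 45.7) of ranks 1601 to 2883. Only 12 of the 772 distal E2-only peaks were in the T-47D DMSO list (1.55%, 0.806 to 2.7).

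**Figure D5:**
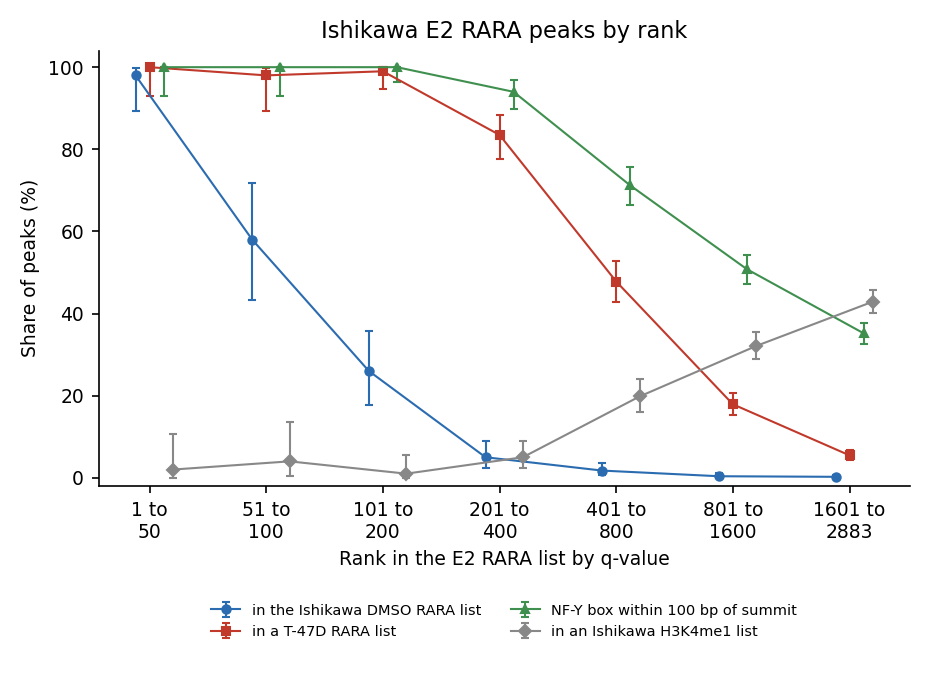
Share of Ishikawa E2 RARA peaks (y axis, %) by rank of q-value (x axis) that were in the Ishikawa DMSO RARA list, were in a T-47D RARA list, had an NF-Y box within 100 bp of the summit, or were in an Ishikawa H3K4me1 list. Bars are exact 95% intervals. The DMSO share drops first, from 98.0% to 26.0% by ranks 101 to 200, where the T-47D and box shares are still 99.0% and 100%, and the H3K4me1 share grows with rank.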

How the data were processed

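Per the labels and methods, the authors aligned ChIP-seq reads with Bowtie 1.1.2 to hg19, kept reads with 1 best placement, and called peaks in each library with MACS2 2.1.0.20140616. The deposited columns used here are the ratio of ChIP to background (fold enrichment), the −log10 p-value and the −log10 q-value at each peak, and the authors' score is the whole part of 10 times the −log10 p-value. No tag counts were used as such. Depth was recovered from fold enrichment and p-value (tolerance 0.002), with 2700 Mb of mappable genome assumed, so totals are estimates.

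Groups came from the labels. Peaks were classed by an overlap of at least 1 bp. Genes and start sites were from GENCODE v44 lifted to GRCh37, and sequences from the GRCh37 primary assembly, whose chromosome names matched. The 3 mitochondrial peaks were left out of sequence counts. Intervals are exact 95% binomial ones. Scripts used Python with pysam and scipy, and overlaps, pileups and letter searches were tested on simulated data. No test was made, as each group was 1 library.

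Members, gene lists and named genes were chosen with earlier results of these data known. Named were the 10 shared, 10 E2-only and 10 distal peaks of highest fold enrichment, all DMSO-only peaks as a group, members of the retinoid, coregulator, estrogen and immediate early lists with a peak, the leading members of the other lists, and up to 10 genes with 3 or more peaks. A few genes that these rules name are not reported here.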

Additional observations from a re-analysis of the deposited data

Results flagged for a closer look

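The ratio of E2 to DMSO RARA peaks differed between the lines. In Ishikawa it was 21.0 (137 and 2883 peaks), and in T-47D 0.895 (844 and 755 peaks), a log2 ratio of 4.40 against −0.16. The gap between these log2 ratios was 4.56. The direction differed between the lines with 1 library per treatment in each, and the difference was not tested. The Ishikawa DMSO list was the shortest of the 4, and its library had the fewer tags of the Ishikawa pair.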

How the results depend on the processing

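The ratio of E2 to DMSO peaks stayed above 1 under every alternative. It was 14.5 for peaks enriched at least 10-fold, and 7.36 when the E2 list was rescaled to the DMSO depth, an alternative chosen after seeing the data. The share of DMSO peaks in the E2 list was 42.3% at a reciprocal overlap of 50%, 85.4% for summits at most 100 bp apart, 67.9% with the E2 list shortened to the DMSO length, and 100% without peaks in the MYC DMSO list (chosen after seeing the data), which follows by construction, since that list holds all 11 DMSO-only peaks. The share of E2 peaks in the DMSO list was 2.01% at the reciprocal overlap, 67.9% after shortening, 11.4% at a fold enrichment of at least 10 and 12.1% after rescaling.

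Promoter shares were 90.6% (shared) and 57.9% (E2-only) within 1000 bp, 90.6% and 53.5% for any base of the peak, and 47% for E2-only peaks at a fold enrichment of at least 10. Overlap with the H3K4me3 DMSO list, as shared and E2-only, was 5.51% and 7.87% at the reciprocal overlap, 32.3% and 62.4% for the summit inside, and 37.8% and 18.6% with that list shortened. So the order of the classes turned for H3K4me3 under the first 2, and also for H3K4me3 E2 and SIN3A full media for the summit inside. Elsewhere among the 19 lists the order was kept under all 3 alternatives. For JUN E2 the values were 23.6% and 30.6%, 29.9% and 74.3%, and 7.87% and 40.3%. For TAF1 DMSO they were 56.7% and 21.3%, 82.6% for E2-only with the summit inside, and 32.3% and 21.7%. E2 RARA peaks were at 8.03% of constant and 4.03% of E2-only JUN peaks at the reciprocal overlap, and at 11.7% and 2.66% with a RARA fold enrichment of at least 10. Of all protein-coding genes 9.40% had an E2 summit within 1000 bp and 7.69% with coding transcripts only, and of those with H3K4me3 13.8% and 11.3%.

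The CCAAT box share, shared and E2-only, was 82.7% and 42.3% within 50 bp of the summit and 96.7% and 56.7% at a fold enrichment of at least 10. The half-site was at 8.39% and 16.3% of E2-only peaks under the same 2. In these shares a move is beyond the exact interval of the reported value, and the cause of moves was not tested. With 1 library per group none could be left out. No paired analysis was possible because each group was 1 library and the results come from no test. The lowest pileup was 14 tags in the DMSO list and 15 in the E2 list.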
